A study of Mus musculus with 12 samples.

Results

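The genes described here are those of the immunoproteasome, of its activator and of peptide loading onto MHC class I: Psmb8, Psmb9, Psmb10, Psme1, Psme2, Tap1, Tap2, Tapbp, Erap1 and Nlrc5. They were listed by name, and each probe of theirs was taken, whatever its values. Of the 10 genes, 9 matched a probe, and these 9 have 12 of the 41174 non-control probes of the array. Psmb8, Psme2 and Tapbp have 2 probes each, and Nlrc5 was not analysed here. Both groups were female mice of 12 weeks. The NOD strain develops spontaneous autoimmune diabetes, and NOD.B10 mice served as healthy controls on the NOD background with another MHC haplotype. Each of 6 mice per strain gave 1 array, on which amplified RNA of islets cut by laser from frozen pancreas sections was labelled with Cy5. The Cy3 channel of every array held the same commercial mouse reference RNA, and the dyes were not swapped. The comparison asks which of these transcripts differ in islets of the diabetes-prone strain.

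The proteasome cuts cytosolic proteins into peptides. Interferon gamma makes cells replace its catalytic subunits with Psmb8, Psmb9 and Psmb10, which changes the peptides that are made, and Psme1 with Psme2 forms the PA28 ring that opens the core particle. Tap1 and Tap2 form the transporter that carries peptides into the endoplasmic reticulum, Tapbp (tapasin) holds empty class I molecules at that transporter, and Erap1 trims the peptides to length. Nlrc5 is a transactivator of class I genes. In islets, class I molecules display beta-cell peptides to CD8 T cells, and lymphocytes and macrophages, which express this machinery strongly, infiltrate the islets of NOD mice.

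Promoters are shown for 3 of the genes that were called higher, since Psmb9 shares its promoter with Tap1 and the PA28 genes lie close together, with Emc9 between them. Sequences are from RefSeq on build GRCm38.p6, on the strand of the gene, 5′ to 3′, and end at the base before the annotated start. The window of Psmb9 is chr17:34187331-34187555 on the minus strand, which is the whole stretch of 225 bases between the starts of Psmb9 and Tap1. Those of Psme1 (chr14:55578244-55578493, plus strand) and Psme2 (chr14:55591102-55591351, minus strand) hold 250 bases.
Psmb9 and Tap1, read toward Psmb9: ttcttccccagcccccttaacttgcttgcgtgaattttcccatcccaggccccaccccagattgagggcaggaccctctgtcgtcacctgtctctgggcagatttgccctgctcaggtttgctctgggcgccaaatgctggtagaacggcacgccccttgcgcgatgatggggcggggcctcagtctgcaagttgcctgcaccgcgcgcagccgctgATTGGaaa
Psme1: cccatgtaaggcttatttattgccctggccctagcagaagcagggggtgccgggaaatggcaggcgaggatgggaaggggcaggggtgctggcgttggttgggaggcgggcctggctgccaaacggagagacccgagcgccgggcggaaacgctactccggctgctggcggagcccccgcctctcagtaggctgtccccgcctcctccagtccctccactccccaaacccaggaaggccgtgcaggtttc
Psme2: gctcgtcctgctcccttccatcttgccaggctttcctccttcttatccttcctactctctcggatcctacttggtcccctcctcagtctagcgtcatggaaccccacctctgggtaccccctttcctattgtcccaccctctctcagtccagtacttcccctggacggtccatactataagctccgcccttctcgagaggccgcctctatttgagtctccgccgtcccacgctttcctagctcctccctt
Capitals mark a match to the CCAAT box (CCAAT on either strand), 4 to 8 bases before the start of Psmb9. It was the only match in these windows, and in that of Psmb10, among 4 motifs searched on both strands: CCAAT, the interferon gamma activated site TTCNNNGAA, the interferon regulatory factor element (GAAA, any 2 bases and GAAA again) and the NF-kappaB consensus. Of 32851 promoter windows of 225 bases, 31.6% hold CCAAT, 6.23% TTCNNNGAA, 2.62% the interferon regulatory factor element and 3.54% the NF-kappaB consensus. Over 250 bases the shares are 33.8%, 7.02%, 2.98% and 3.90%. A match describes the letters and is not a binding site, and the array measured no binding.

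The PA28 activator genes and 2 of the 3 inducible catalytic subunits were called higher in NOD islets, and no gene of the list was called lower. On the scale of normalised ratios Psme2 was 2.31-fold higher and Psme1 1.86-fold, the latter with signal well above background on 2 of 6 NOD.B10 arrays. Psmb10 and Psmb9 were called higher and are given without a fold, since neither was well above background on any NOD.B10 array. The peptide-loading genes that could be tested, Tapbp and Erap1, did not pass. Psmb8, Tap1 and Tap2 gave no islet signal well above background on any array, as 78.1% of all non-control probes did. A probe was tested where its Cy5 signal was well above background by the scanner's mark ("read" from here on) on at least 4 of the 12 arrays, which 7 of the 12 probes and 13.0% of all non-control probes met. Among the 7, 4 were called higher and 0 lower in limma at a Benjamini-Hochberg adjusted p under 0.05, against 20.0% and 16.4% of all 5347 tested probes. That background depends on the scaling: 2581 of the 5347 were called higher and 1 lower with arrays centred on their median in place of loess, and 1576 and 410 in the deposited scanner ratios. Of these 7 probes, 4 passed that filter through NOD arrays alone, so their count is no support. Of all tested probes 32.2% were read on no NOD.B10 array, and 30.2% of those were called higher, against 21.4% of the probes read on all 12 arrays. The median difference of the 7, NOD minus NOD.B10, was 0.49 on the log2 scale, and that of all tested probes was 0.016.

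**Figure D1:**
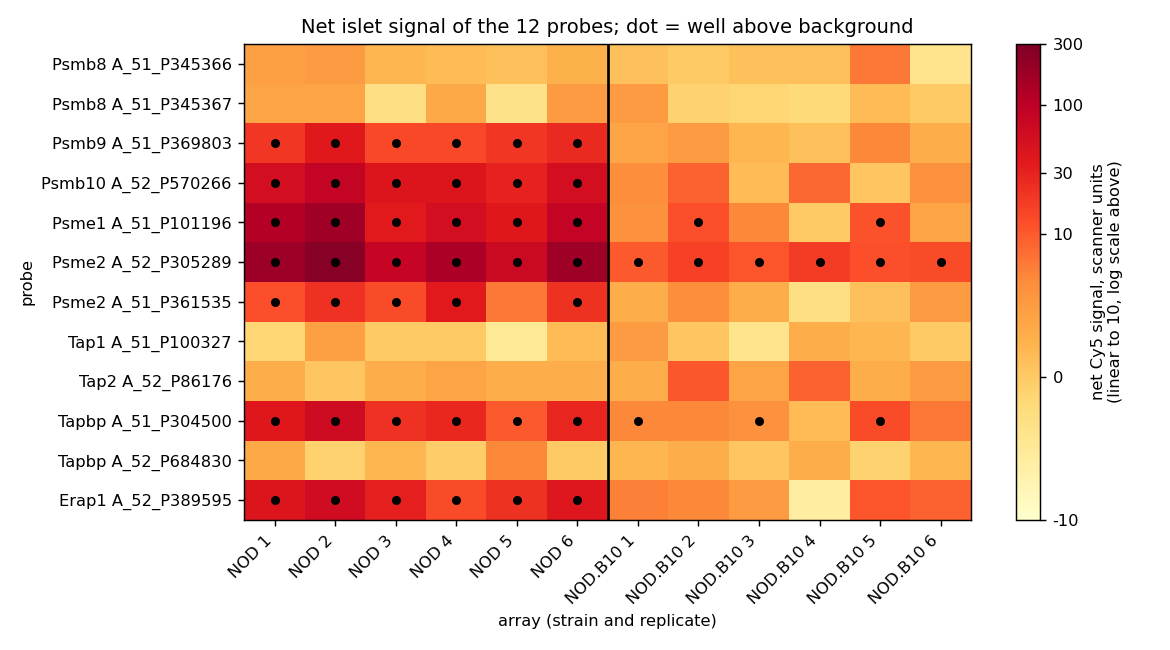
Net Cy5 signal (islet channel minus local background, in scanner units, colour) of the 12 probes on each of the 12 arrays, with a dot where the scanner marked the signal well above background. The Psme2 probe A_52_P305289 carries dots on all 12 arrays, and Psmb8, Tap1, Tap2 and the Tapbp probe A_52_P684830 on none.

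The islet channel was brighter on NOD arrays throughout. Cy5 was well above background on 10.7 to 17.3% of spots in NOD and on 3.96 to 7.88% in NOD.B10, while Cy3 was on 46.7 to 51.9% and 47.8 to 54.4%. The strains do not overlap in this share, so strain and brightness cannot be told apart. The arrays lay on 4 slides. Slide 1 held NOD replicates 1 and 2, whose islet channel was the brightest, slide 4 held NOD.B10 replicates 2 and 3 and was read on another day, and each of slides 2 and 3 carried arrays of both strains, 2 of NOD and 2 of NOD.B10. Of the listed leukocyte markers, 17 of 17 tested were called higher, against 18.7% of all tested genes at 1 probe each, and their summed net Cy5 was 0.438 to 1.40% of the total in NOD and 0.0224 to 0.0617% in NOD.B10. Of these 17, 13 were read on no NOD.B10 array and so passed the filter through NOD alone, where 30.2% of all such probes were called higher. Leukocytes express the genes described here, and their part in each difference was not tested. Lyz2, Jchain, Ptprc and Ctss had the smallest p among them, and Cd3e, Cd3g, Cd2, Lck, Cd79a, Itgam, C1qa, C1qb and Prf1 were well above background on no array. Islet endocrine markers, which identify the captured tissue, held 5.97 to 15.1% and 9.62 to 19.0% of net Cy5, with 6 of 13 tested called lower (Ins2, Slc2a2, Chga and Pcsk2 with the smallest p) and 0 higher. Mafa, Pdx1 and Scg2 of that list were well above background on no array. Of 6 tested acinar markers 4 were called lower (Amy1, Cpb1, Sycn and Pnlip), and of 7 duct, endothelial and stromal markers 1 was called higher (Dcn) and 1 lower (Col1a1). Cdh5, Krt19, Krt7, Pecam1 and Sox9 of the latter list were well above background on no array. With median centring 3 of the 13 islet endocrine markers were called higher and 0 lower, and of the 6 acinar markers 0 were called in either direction. Of all 5347 tested probes 2581 were called higher there and 1 lower. In such bulk tissue, fewer cells of a type and less RNA per cell cannot be told apart.

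Psme2, the beta subunit of PA28, had the brightest islet signal of the list and the one probe read on all 12 arrays (A_52_P305289). Its net Cy5 signal ran from 71 to 260 scanner units in NOD (median 156) and from 10 to 17.5 in NOD.B10 (median 12.5). After normalisation its log2 ratio of islet to reference ran from 0.74 to 1.49 in NOD (median 1.32) and from -0.23 to 0.21 in NOD.B10 (median -0.019). Every NOD array lay above every NOD.B10 array, as on 9.89% of tested probes, and NOD replicates 3 and 5 were the lowest of their strain. The difference was 1.21 ± 0.15 on the log2 scale (SE, n = 6 per strain, limma adjusted p = 0.000136). This ratio carries an added offset of 50 units and is set against probes of like brightness on the same array, which shrinks the change of dim probes. With no offset, each array was centred on the median of the probes read on all 12 arrays. The Psme2 difference was then 1.64 for Cy5 alone and 1.43 for Cy5 over Cy3. Relative to the difference of the median probe (-0.11 and -0.36) it was 1.74 and 1.79. The strain difference within slide 2 was 1.08 and within slide 3 it was 1.17.

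The other Psme2 probe (A_51_P361535) was dimmer and did not pass. Its net Cy5 was 8 to 36 units in NOD, well above background on 5 of 6 arrays, and -3 to 6.5 units in NOD.B10, on 0 of 6. Its log2 ratio ran from -0.013 to 0.88 in NOD (median 0.25) and from -0.27 to 0.19 in NOD.B10 (median 0.0045), and the groups overlapped, with 3 NOD arrays above the highest NOD.B10 array. The difference was 0.32 ± 0.15 (SE, n = 6 per strain, limma adjusted p = 0.106), and relative to the shift of the median probe it was -0.12 when arrays were centred on their median in place of loess. In the deposited scanner ratios it was 1.77 relative to that shift and passed (limma adjusted p = 0.00784). The difference between the probes' changes was not tested, and NOD replicate 4 was the highest array on the dim one. Psme2 has a near-identical retrogene, Psme2b, so that either probe may read both.

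Psme1, the alpha subunit of PA28, was read well above background on 6 of 6 NOD and 2 of 6 NOD.B10 arrays. Net Cy5 was 36 to 166 units in NOD (median 71) and 0 to 12 in NOD.B10 (median 6.5). Its log2 ratio ran from 0.19 to 1.25 in NOD (median 0.76) and from -0.38 to 0.050 in NOD.B10 (median -0.11). The groups did not overlap, although NOD replicate 3, at 0.19, was close to the highest NOD.B10 array. The difference was 0.89 ± 0.17 (SE, n = 6 per strain, limma adjusted p = 0.00142), 0.69 within slide 2, 0.76 within slide 3 and 0.68 without slide 1. NOD replicates 1 and 2, the arrays with the brightest islet channel, were also the highest for Psme1.

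**Figure D2:**
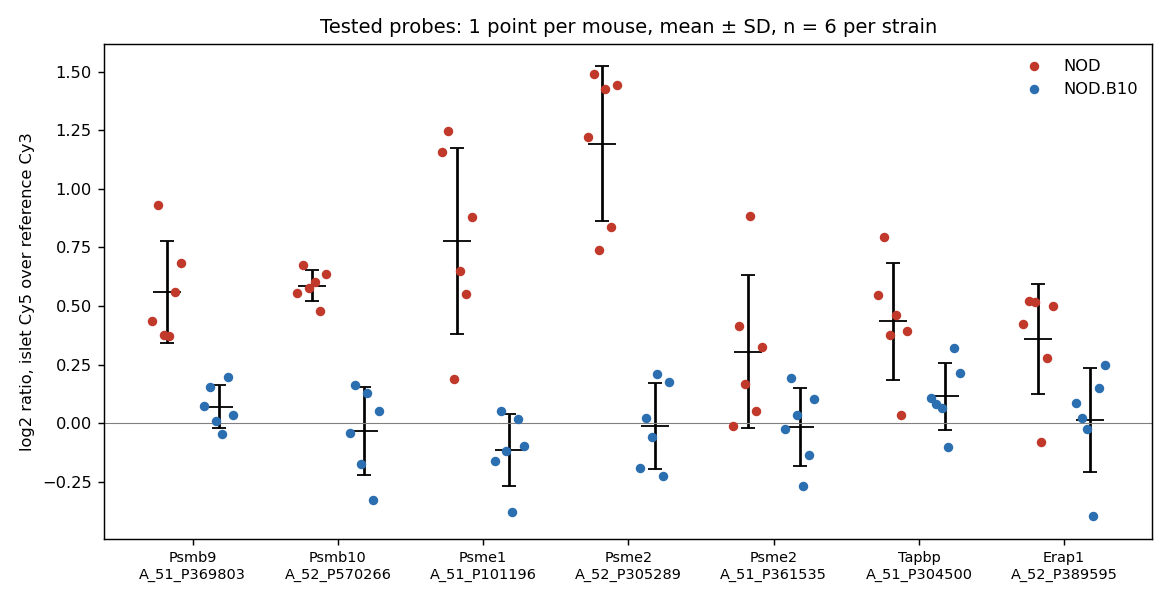
Log2 ratio of islet Cy5 over reference Cy3 (vertical axis) of the 7 tested probes, with 1 point per mouse and the mean ± SD of 6 mice per strain. NOD and NOD.B10 do not overlap for Psmb9, Psmb10, Psme1 and the Psme2 probe A_52_P305289, and overlap for the other 3 probes.

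Psmb10, the inducible subunit that replaces Psmb7, was well above background on 6 of 6 NOD arrays and on 0 of 6 NOD.B10 arrays. Its net Cy5 was 29.5 to 86.5 units in NOD (median 49.5) and 0.5 to 9.5 in NOD.B10 (median 6.25). The log2 ratio ran from 0.48 to 0.68 in NOD (median 0.59) and from -0.33 to 0.16 in NOD.B10 (median 0.0052), with no overlap. The NOD ratios lay close together after normalisation, with an SD of 0.068, although their net Cy5 spread from 29.5 to 86.5 units. The SD of 0.19 in NOD.B10 is that of signals not well above background, so the SDs do not compare the spread of mice. The fitted difference was 0.62 ± 0.10 (SE, n = 6 per strain, limma adjusted p = 0.000559), 0.55 within slide 2 and 0.69 within slide 3. Since no NOD.B10 array read it, no fold is given.

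Psmb9, which replaces Psmb6 and is encoded beside Tap1 in the MHC, was also well above background on all 6 NOD and 0 NOD.B10 arrays. Net Cy5 was 14 to 38 units in NOD (median 19) and 1 to 7 in NOD.B10 (median 3.5). The log2 ratio ran from 0.37 to 0.93 in NOD (median 0.50) and from -0.048 to 0.20 in NOD.B10 (median 0.054), with no overlap, and NOD replicate 2 was the highest. The fitted difference was 0.49 ± 0.11 (SE, n = 6 per strain, limma adjusted p = 0.00395), 0.36 within slide 2 and 0.51 within slide 3. As for Psmb10, no fold is given. A lower bound was sought by raising low NOD.B10 levels to a floor. The floor was the 10th percentile of the normalised Cy5 levels marked well above background on the array. The bound was 0.97-fold for Psmb9, which sets no rise. For Psmb10 the floor raised no NOD.B10 level, so its value of 1.47 is the plain normalised ratio and bounds nothing. With the lowest such level as the floor, no level was raised for either gene, and the plain ratios of 1.30 and 1.47 set no bound. The Psmb9 difference turned to -0.074, relative to the shift of the median probe, with arrays centred on their median in place of loess.

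Psmb8, the inducible subunit that replaces Psmb5, was well above background on none of the 12 arrays with either probe. Net Cy5 of probe A_51_P345366 was 1 to 5 units in NOD and -4 to 8 in NOD.B10. Probe A_51_P345367 gave -3.5 to 5 and -2 to 5 units. The reference RNA was read by both probes on all 12 arrays, though dimly, at 15 to 32.5 and 10 to 27 units of net Cy3. An islet difference of Psmb8 was therefore not detectable at this brightness.

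Each inducible subunit was also set against its constitutive counterpart on the same array. The level of Psmb9 relative to Psmb6 was 0.92 ± 0.32 in NOD and 0.28 ± 0.23 in NOD.B10 as a difference of log2 ratios (SD, n = 6), which is 0.64 higher in NOD (exact 2-sided permutation p = 0.00433, adjusted over 3 pairs 0.00649). Psmb10 relative to Psmb7 was 0.67 ± 0.13 and 0.094 ± 0.22, a strain difference of 0.57 (exact permutation p = 0.00433, adjusted 0.00649). For Psmb8 relative to Psmb5 the strain difference was 0.057 (exact permutation p = 0.649). The smallest p that the 924 assignments of the arrays allow is 0.00216. With the slide as a fixed term both called pairs had an exact permutation p of 0.0556 (adjusted 0.0833), the smallest that the 36 assignments within slides allow, so neither pair passed there. Psmb5 and Psmb7 were well above background on no array, so the second pair carries little beyond Psmb10 itself. Psmb8 was read on no array either, so the last pair is a difference of signals not well above background and says nothing of Psmb8. In NOD.B10 neither Psmb9 nor Psmb6 was read on any array, so the value of that pair there is a difference of signals not well above background. Mean net Cy5 in NOD and NOD.B10 was 21.7 and 3.67 units for Psmb9, and 22.2 and 4 units for Psmb6. Psmb9, Psmb10 and Psmb6 passed the filter through NOD arrays alone, so the p-values of both called pairs are no support for a change of subunit. Psmb6 was read on 6 NOD and 0 NOD.B10 arrays, with log2 ratios of -0.54 to -0.16 and -0.48 to -0.011, and was not called (-0.15 ± 0.10, SE, limma adjusted p = 0.279). Its net Cy5 was 7 to 32.5 units in NOD (median 23.75) and -2 to 8.5 in NOD.B10 (median 5). Psmb6 was called higher with median centring and in the scanner ratios, at 0.038 and 0.92 relative to the median probe. The difference of Psmb9 from Psmb6 was -0.11 with median centring and 0.056 in Cy5 alone, whereas that of Psmb10 from Psmb7 was 0.91 and 0.39.

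**Figure D3:**
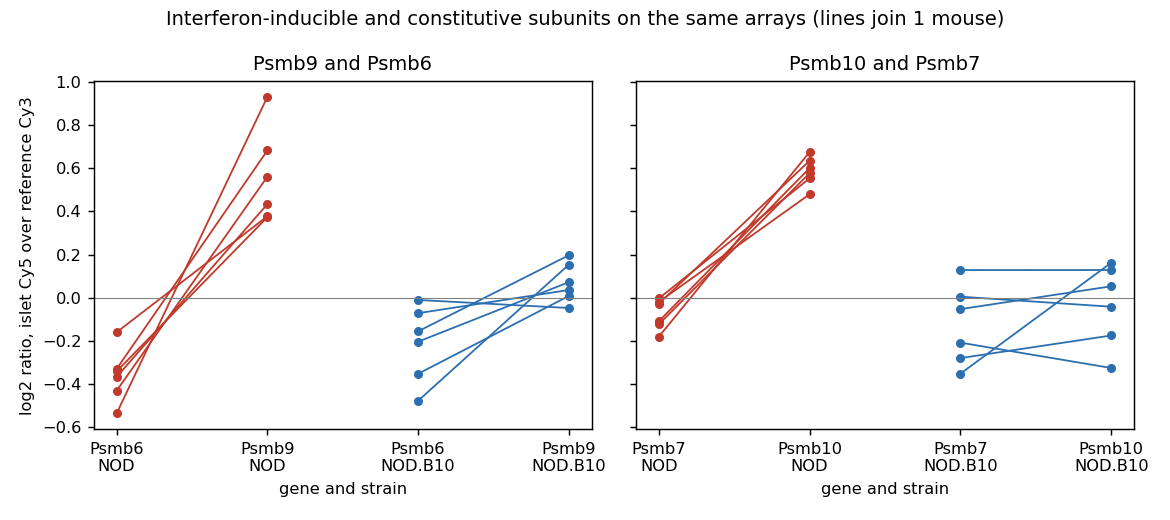
Log2 ratio of islet Cy5 over reference Cy3 of Psmb6 and Psmb9 (left) and of Psmb7 and Psmb10 (right), with lines joining the values of 1 mouse, 6 mice per strain. In NOD each line climbs to the inducible subunit, by a mean of 0.92 and 0.67, and in NOD.B10 the means are 0.28 and 0.094. None of these genes was read on a NOD.B10 array, and Psmb7 was read on no array.

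Tap1 and Tap2, the chains of the peptide transporter, could not be compared. The Tap1 probe gave -5 to 4.5 units of net Cy5 in NOD and -4 to 5 in NOD.B10, and its Cy3 signal was well above background on 0 of 12 arrays, so that it read neither islet nor reference RNA. Tap2 gave 0.5 to 4 and 3 to 10.5 units of net Cy5, and its Cy3 was well above background on 1 array. In NOD.B10, replicates 2 and 4 were the highest Tap2 arrays, at 10.5 and 9.5 units, still not well above background. These probes say nothing of the transporter genes in either strain.

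Tapbp was read on 6 NOD and 3 NOD.B10 arrays by probe A_51_P304500. Net Cy5 was 10 to 63.5 units in NOD (median 27.5) and 1.5 to 13 in NOD.B10 (median 7). The log2 ratio ran from 0.034 to 0.79 in NOD (median 0.43) and from -0.10 to 0.32 in NOD.B10 (median 0.094). Of the NOD arrays 5 lay above every NOD.B10 array, and NOD replicate 5 lay within the range of NOD.B10. The difference of 0.32 ± 0.12 (SE, n = 6 per strain) missed the threshold (limma adjusted p = 0.0582). Without NOD replicate 5 it was 0.40 and passed (limma adjusted p = 0.0114). It was -0.053 within slide 3. The other Tapbp probe, A_52_P684830, was read in the islet channel on no array, with -1 to 7 units of net Cy5 over both strains, and in the reference channel on 11.

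Erap1, the trimming peptidase, was well above background on 6 NOD and 0 NOD.B10 arrays. Net Cy5 was 13 to 61 units in NOD (median 36.2) and -6 to 11 in NOD.B10 (median 7.25). The log2 ratio ran from -0.079 to 0.52 in NOD (median 0.46) and from -0.40 to 0.25 in NOD.B10 (median 0.052). NOD replicate 4 was the lowest of its strain and overlapped the NOD.B10 arrays, which the other 5 did not. The difference of 0.35 ± 0.13 (SE, n = 6 per strain, limma adjusted p = 0.0592) did not pass. It passed without NOD replicate 4 (0.43, limma adjusted p = 0.0160) and without NOD.B10 replicate 6 (0.39, limma adjusted p = 0.0496).

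By place in the genome, 7 of the 12 probes belong to genes of the MHC region of chromosome 17, where Psmb9, Tap1, Psmb8 and Tap2 lie side by side and Tapbp further along. Here the strains differ by haplotype, and whether their alleles bind the probes alike was not tested. Of these 7 probes 2 were tested and 1, that of Psmb9, was called. Psmb10 (chromosome 8), Psme1 and Psme2 (both chromosome 14) and Erap1 (chromosome 13) lie outside it. Their 5 probes were all tested, and 3 were called. The reference RNA is the same on all arrays, and the net Cy3 signal of the 12 probes gave exact permutation p between strains of 0.0736 to 0.881, with 0.455 the smallest after adjustment over the 12.

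How the members moved from mouse to mouse within a strain also followed the brightness of the array to differing degrees. Over the 12 arrays with the strain means removed, the deviation of Psme1 correlated with the percent of spots read at r = 0.79, that of Tapbp at 0.75, Psmb9 at 0.57, Psme2 at 0.34, Erap1 at 0.29 and Psmb10 at -0.023. Between tested members, r ran from -0.24 (Psme2 with Erap1) to 0.67 (Psme1 with Tapbp), and it was 0.53 for the PA28 pair. All these points share arrays and normalisation, and r is given as a description. With that percent as a covariate, limma called 0 of the 7 probes, and 5 of all 5347 probes (222 higher and 177 lower at an unadjusted p under 0.05). The difference was then 0.63 for Psmb10 and 0.86 for Psme2, with unadjusted p of 0.0176 and 0.0270, 0.13 for Psmb9, -0.022 for Psme1 and -0.26 for Tapbp. Outside the members, the 5 genes whose deviations were most like the mean of the tested members were Gimap5 (r = 0.95), Hcls1 (0.93), Dek (0.93), Pou2af1 (0.92) and Pqlc3 (0.92).

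**Figure D4:**
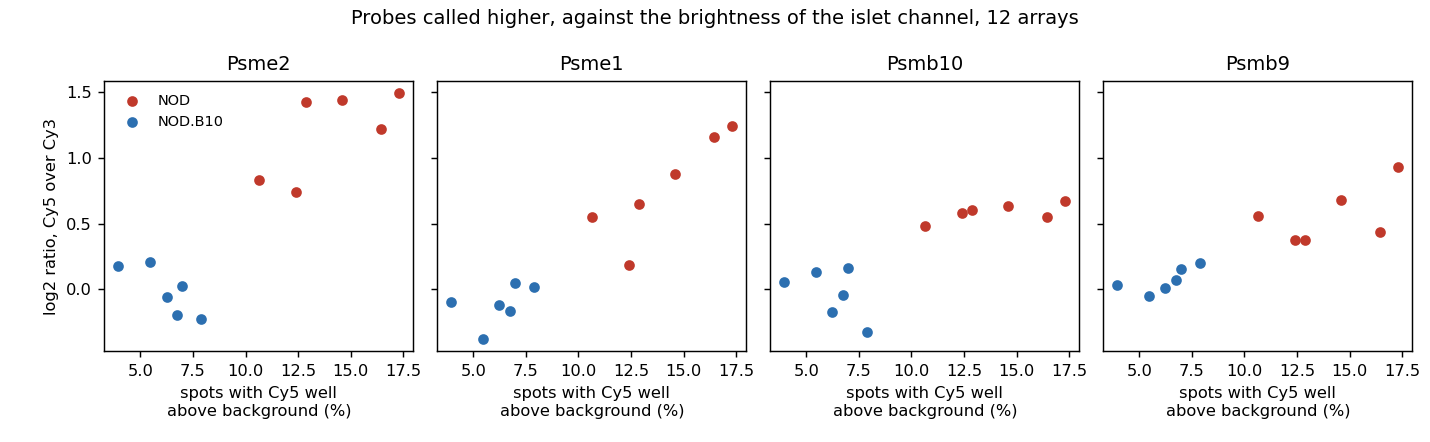
Log2 ratio of islet Cy5 over reference Cy3 (vertical axis) of the 4 probes called higher against the percent of spots with Cy5 well above background (horizontal axis), 1 point per array, 6 per strain. The strains do not overlap on the horizontal axis, and within NOD the Psme1 points run from 0.19 to 1.25 with the highest on the brightest arrays, while those of Psmb10 stay between 0.48 and 0.68.

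The size of each difference depended on how the ratios were scaled. With an offset of 10 the differences were 0.96 for Psmb9, 1.00 for Psmb10, 1.30 for Psme1 and 1.28 for Psme2. In the ratios deposited from the scanner, which shift the median probe by 0.55, they were 2.98, 1.79, 1.59 and 0.95 relative to that shift, so that the order of the genes turned. In Cy5 alone after quantile normalisation they were 0.22, 0.41, 0.58 and 0.66, all 4 called. With the slide as a fixed term the 4 also passed, at 0.43, 0.62, 0.72 and 1.12 (limma adjusted p = 0.0453 for Psmb9, 0.0109 for Psmb10, 0.00725 for Psme1 and 0.00538 for Psme2).

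**Figure D5:**
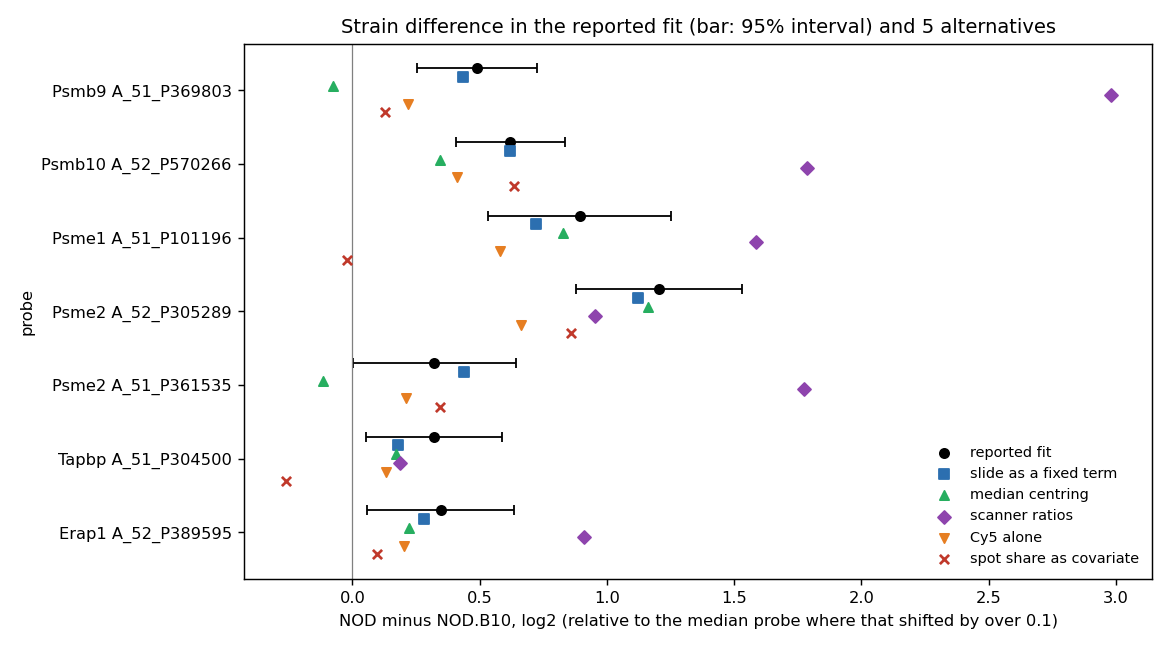
Difference NOD minus NOD.B10 (log2, horizontal axis) of the 7 tested probes in the reported fit, with its 95% interval, and under 5 alternatives, relative to the median probe where that shifted by over 0.1. Psme2 A_52_P305289, Psmb10 and Erap1 stay above 0 under each alternative drawn, Psmb9 falls to -0.074 with median centring, and Psme1 to -0.022 and Tapbp to -0.26 with the spot share as a covariate.

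The rest of the pathway was followed through fixed lists, with 1 probe per gene. Among 3921 genes so counted, 18.7% were called higher and 17.9% lower. Of the other proteasome core subunits and assembly factors, 4 of 7 tested were called higher and 0 lower, with a median difference of 0.46. These 4 were the alpha-ring subunits Psma1 (1.10 ± 0.16, SE, limma adjusted p = 0.000311), Psma2 (1.04 ± 0.22) and Psma5 (0.46 ± 0.14) and the beta-ring subunit Psmb3 (0.79 ± 0.12), each read on all 12 arrays. They are part of the constitutive and of the inducible particle alike. With the deposited scanner ratios 1 of the 7 was called, and relative to the median probe Psma5 was at -0.14 and Psmb3 at -0.16. With the offset of 10 also 1 was called, Psma1. With median centring 7 of the 7 were called higher, where 2581 of all 5347 tested probes were, with a median of 1.05 relative to the median probe. In Cy5 alone 4 were called higher, and with the spot share as a covariate 0. Of the other activators and inhibitors 1 was tested and 0 called (Psme4, which forms the PA200 cap, -0.095 ± 0.18, adjusted p = 0.710). Psmb6 was the tested member of the constitutive catalytic subunits.

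Class I chains included the largest differences of the lists on this pathway. Of the class I chains 3 of 5 tested were called higher and 1 lower, with a median of 2.15. That median was 1.32 with the offset of 10, 0.83 in Cy5 alone, 0.56 in the scanner ratios relative to the median probe and 0.68 with the spot share as a covariate. B2m, the light chain of all class I molecules, was 4.25 ± 0.24 higher (SE, n = 6 per strain, limma adjusted p = 2.36e-07), H2-K1, a classical heavy chain, 2.48 ± 0.22 and H2-M3, which presents formylated peptides, 2.15 ± 0.25. H2-Q10, a secreted class I chain, was lower by -0.97 ± 0.20, with 5 NOD arrays and 1 NOD.B10 array well above background, and lay at -0.0032 relative to the median probe with median centring. H2-D1, another heavy chain, was read on 6 NOD and 4 NOD.B10 arrays and was not called (-0.11 ± 0.54, SE, limma adjusted p = 0.897). Heavy chains are alike in sequence and can differ between haplotypes, so signals may be shared or allele-dependent, which was not tested. B2m lies outside the MHC.

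Loading and folding proteins of the endoplasmic reticulum showed no rise that passed in the reported fit. Of 6 tested, 0 were called higher and 1 lower, with a median of -0.11. With median centring 4 of the 6 were called higher and 0 lower, where 2581 of all 5347 tested probes were called higher and 1 lower. The list's median was then 0.38 relative to the median probe, and in the scanner ratios it was -1.04 on that scale. The one called lower in the reported fit was Calr, the chaperone calreticulin (-0.28 ± 0.094, SE, limma adjusted p = 0.0322). It was read on 4 NOD and 0 NOD.B10 arrays and was 0.017 in Cy5 alone. Of the other trimming peptidases 0 of 2 tested were called higher and 1 lower, Lap3, a leucine aminopeptidase (-0.48 ± 0.12, adjusted p = 0.00912), read on 5 NOD and 0 NOD.B10 arrays and 0.059 in Cy5 alone. Neither has a measured level in NOD.B10.

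Regulators of the interferon gamma route and of class I genes were called higher in 7 of 10 tested cases and lower in 0, with a median of 1.04. With the spot share as a covariate 0 of the 10 were called, and the median was 0.26. Creb1, Nfyb and Stat3 were tested and not called. Of the 24 genes with a probe, 8 were read on no array: Irf7, Nfya, Nfyc, Rela, Rfx5, Rfxank, Rfxap and Stat2. Among all tested genes at 1 probe each, 18.7% were called higher and 17.9% lower. Of these 10 regulators, 4 were read on no NOD.B10 array and so passed the filter through NOD alone. Of all such probes, 30.2% were called higher. Ifngr1, the ligand-binding chain of the interferon gamma receptor, was higher by 2.30 ± 0.33 and Irf1, a transcription factor induced by interferon gamma, by 1.94 ± 0.22 (SE, n = 6 per strain, limma adjusted p = 0.000311 and 7.85e-05). Socs3, a feedback inhibitor of cytokine receptors, had a fitted difference of 1.64 ± 0.21 (adjusted p = 0.000163) but was read on 0 NOD.B10 arrays. Ifng itself, with 2 probes, was not tested, since at most 2 NOD arrays and 0 NOD.B10 arrays read it. Jak1, Socs1 and Irf8 were among the other called members, and Socs1 and Irf8 were read on 0 NOD.B10 arrays. With median centring, relative to the shift of 0.43, the list's median was 0.50, Socs1 was at -0.14 and Irf8 at -0.015. As with the members, the leukocyte marker signal differed between the strains beside these lists, and its part in them was not tested.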

How the data were processed

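Islet RNA (Cy5) of 12 mice and a common reference (Cy3) were hybridised on 2-colour Agilent mouse arrays. The deposited scanner files hold intensity values, as median signal and median local background per channel, not normalised, which per the file headers came from Feature Extraction 10.5.1.1. They also hold a log10 ratio of processed Cy5 over Cy3 made by the authors' feature extraction, whose log2 the deposited series table gives, as its values showed. Quality marks (other columns) were used as deposited, per the file headers. Mean signals were not used here, so medians took their place. In R 4.3.3, limma 3.58.1 corrected the background by normexp with an offset of 50 and normalised each array by loess. Spots of a probe were averaged. The script was tested on simulated data. Probes were named by matching accessions to a RefSeq annotation (GRCm38.p6), which named 24375 of 41174. Array coordinates were not used here.

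Strains were compared with lmFit and eBayes, with Benjamini-Hochberg adjustment over all 5347 tested probes and a threshold of 0.05. Subunit pairs were compared with exact permutation tests. Named are all members, the constitutive catalytic subunits, up to 4 called genes per list by p (up to 2 tested ones where none was called), and the 5 genes most like the members. Genes off every array, further called regulators and H2-D1 are named beside them. A result that this rule names is not reported here. The members and lists were chosen with earlier results of these data known. Each array is a separate mouse, and precision rests on their number and on how far signals stood over background. Replicate numbers are not stated to pair the mice, and no pairing was used in the reported fit. Same-numbered deviations correlated over 0.1 in 3 of 6 pairs, and 1 NOD array correlated best with its own number. These values do not settle whether the numbers pair mice. Alternatives covered normalisation, background, filter, slide, array weights, brightness and each mouse left out. Offset 10, ratios without offset and leaving out slide 1 were added after seeing the data.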

Additional observations from a re-analysis of the deposited data

How the results depend on the processing

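The count of 4 probes called higher was 1 when only probes well above background on all 12 arrays were tested, which leaves Psme2 alone of the members. Of the 1083 probes tested there, 217 were called higher. The member count was 0 within slide 2, within slide 3 and with array brightness (the percent of spots read) as a covariate. Over all 5347 tested probes, those called higher numbered 43 within slide 2, 2 within slide 3 and 5 with the covariate. They numbered 1576 in the scanner ratios, 1264 with array weights and 2581 with median centring. The member count was 6 in the scanner ratios, where Erap1 (0.0351) and the dimmer Psme2 probe (0.00784) also passed by adjusted p in limma. It was 5 with array weights, where Tapbp did (0.0220). With median centring it was 5, with Tapbp (0.00809) and Erap1 (0.00419) in and Psmb9 (0.0787) out, as adjusted p in limma with no allowance for the shift of the median probe. Leaving out 1 mouse gave 4 to 5, and 0 were called lower under every alternative run. Differences reversed with median centring for Psmb9 (-0.074) and the Psme2 probe A_51_P361535 (-0.12), with the covariate for Psme1 (-0.022) and Tapbp (-0.26), and within slide 3 for Tapbp (-0.053). Psmb9 minus Psmb6 was -0.11 with median centring, 0.056 in Cy5 alone and 0.037 with the covariate. Psmb8 minus Psmb5, measured on no array, was -0.042, -0.011 and -0.33 under these, and -0.019 to 0.12 with 1 mouse left out. With the covariate this pair of unread probes had an exact permutation p of 0.00866 (adjusted 0.0130), so a pass there does not require a measured signal. Psmb10 minus Psmb7 was 0.43 with the covariate (exact permutation p, adjusted, 0.00649). Within a slide only 4 arrays enter the fit. The cause of the other changes was not tested. With the replicate number as a block the differences were the same, Psmb9 kept an adjusted p of 0.0109 in limma, Erap1 passed (0.0354), and the 3 pairs did not change side, at 0.64, 0.57 and 0.057. The signal over background limits all of this, since 78.1% of non-control probes were well above background in the islet channel on no array.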
